A study of Sus scrofa with 4 samples.

Results

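Interferon-stimulated genes are the genes that cells switch on when they sense virus or receive interferon. The list studied here held 33 such genes, chosen by name as antiviral effectors, RNA sensors and transcription factors of the STAT and IRF families. A row with the same gene name was found for 32 of the 33 among the 26921 genes and loci of each table, and IFIT5 had none. All 32 had enough reads to be tested. The RNA came from cultured cells labelled as immature spermatogonia of the pig testis, in 2 control libraries (genotype WT) and 2 libraries with ZBTB16 knockdown. ZBTB16 is a zinc finger transcription factor and a marker of undifferentiated spermatogonia. The series' design plans the knockdown with a lentiviral short hairpin RNA in primary cells. The labels do not say whether the WT cells received a vector, so vector and knockdown cannot be told apart for any gene below, and they give no age for the animals.

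Type I interferons bind the receptor IFNAR1 and IFNAR2, and the kinases JAK1 and TYK2 then phosphorylate STAT factors, among them STAT2. Together with IRF9 these form ISGF3, the factor that binds the interferon-stimulated response element in front of many antiviral genes. In other cell types ZBTB16 has been described as a regulator of a subset of interferon-stimulated genes, and the testis is known for constitutive expression of several antiviral proteins. The comparison of control with knockdown asks which of these genes differ between the 2 groups of libraries.

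The libraries held between 15983390 and 18500447 expected counts. Levels are given as FPKM, a fragment count per kilobase of transcript and per unit of sequencing depth as deposited by the authors. Changes are fitted fold changes of counts, knockdown over control, and "rose" and "fell" are used at an adjusted p under 0.05 (edgeR). Control libraries had mean fragment lengths of 325.7 and 326.7 bases. Those of the knockdown were shorter, at 266.4 and 267.4 bases, so fragment length and group cannot be told apart. Germ cell markers were present, with UCHL1 at 85.2 to 121.7 FPKM. The other listed germ cell markers were far lower, from DDX4 at 1.86 FPKM in its lowest library to KIT at 7.78 FPKM in its highest. The 5 listed markers of peritubular cells summed to between 5127 and 5389 FPKM and the 6 of Sertoli cells to between 667.2 and 850.8 FPKM, so transcripts of other testis cell types were present in these libraries. In such bulk RNA, fewer cells of a type and less RNA per cell cannot be told apart.

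ZBTB16 itself was at 1.77 and 1.76 FPKM in the control libraries and at 1.37 and 1.34 FPKM in the knockdown libraries. The groups did not overlap, and the fitted change was log2 -0.36 (SE 0.109, adjusted p = 0.00338). The call was lost with DESeq2 (adjusted p = 0.0858) and with limma on log2(FPKM + 1) (adjusted p = 0.0685).

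Of the 32 interferon-stimulated genes 21 fell, 4 rose and 7 did not pass. Over all 15763 genes tested 23.8% fell and 22.7% rose. The median log2 change was -0.26 over the 32 genes and 0.00 over all genes tested. The deepest falls by counts were those of ISG15 and IFI6, to 0.418 and 0.478 times the control level. The 4 genes that rose were IFITM3, DDX58, EIF2AK2 and HERC5, by 7.0% to 21.0% in counts. IFITM3 was lower in FPKM and under the offset for effective length, and EIF2AK2 and HERC5 were no longer higher with the trend of transcript length removed. The summed counts of the 32 genes were 0.293% of all counts in each control library, and 0.245% and 0.246% in the knockdown libraries. On the TMM-scaled CPM scale, which corrects counts for library size and composition, 25 genes had both knockdown libraries below both controls and 6 had both above. For all genes tested these shares were 35.4% and 35.2%. The gene whose groups overlapped on this scale was IRF9. In FPKM 27 genes lay below and 4 above, against 41.4% and 29.0% of all genes tested. With 2 libraries against 2 an exact permutation test of a single gene cannot go below p = 0.333, so calls rest on the spread that edgeR shares across genes. The median absolute log2 ratio of CPM over the 32 genes was 0.042 between the control libraries and 0.043 between the knockdown libraries, against 0.261 between the first libraries of the 2 groups. The common coefficient of variation that edgeR fitted beyond read sampling was 0.0129. Small p-values here rest on this close agreement of the libraries within a group. The labels describe 2 biological samples from 2 independent experiments, and how separate the libraries of a group were was not tested.

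The DNA in front of these genes is shown because the response element is what many of them share outside the list's own rule. The motif searched was GAAANNGAAA on both strands, written TTTCNNTTTC when it lies on the opposite strand, in the window from 250 bases before to 50 bases after the annotated gene start (RefSeq annotation of Sscrofa 11.1). It was found in 15 of 32 windows (46.9%), against 3.05% of the windows of 15259 tested genes. Among genes that fell 11 of 21 held it, among those that rose 2 of 4 and among those that did not pass 2 of 7. The second interferon motif searched, TTCNNNGAA, was in 3 of 32 windows (9.38%) and in 6.51% of all. A match is a description of the letters and no evidence of binding.

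The match nearest to the gene start among bases before it, in capitals, with up to 20 bases on each side, reads as follows for 6 genes that fell, 2 that rose and 1 that did not pass. All are in the direction of the gene, 5′ to 3′.
ISG15 (fell, chr6:63363073-63363122, plus strand): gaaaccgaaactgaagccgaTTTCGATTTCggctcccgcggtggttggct
RSAD2 (fell, chr3:128897910-128897959, minus strand): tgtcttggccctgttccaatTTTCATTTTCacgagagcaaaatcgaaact
BST2 (fell, chr2:60305098-60305147, plus strand): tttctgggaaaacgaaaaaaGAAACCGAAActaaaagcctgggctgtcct
USP18 (fell, chr5:70183158-70183207, plus strand): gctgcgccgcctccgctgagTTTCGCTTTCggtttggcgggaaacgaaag
IFIT3 (fell, chr14:101214674-101214723, plus strand): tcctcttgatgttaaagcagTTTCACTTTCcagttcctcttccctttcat
CXCL10 (fell, chr8:71696144-71696193, minus strand): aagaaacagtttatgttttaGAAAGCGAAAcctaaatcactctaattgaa
HERC5 (rose, chr8:130591224-130591273, minus strand): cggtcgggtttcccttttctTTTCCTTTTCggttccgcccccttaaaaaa
IFITM3 (rose, chr2:129780-129829, minus strand): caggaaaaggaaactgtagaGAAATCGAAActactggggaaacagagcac
IFIH1 (did not pass, chr15:68985146-68985188, minus strand): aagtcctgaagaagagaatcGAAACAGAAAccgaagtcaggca

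Several of these windows hold more than 1 match. ISG15, which fell, and IFIH1, which did not pass, had 3 each, of which 2 overlap, and IFIT3, BST2 and IFITM3 had 2 each.

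**Figure D1:**
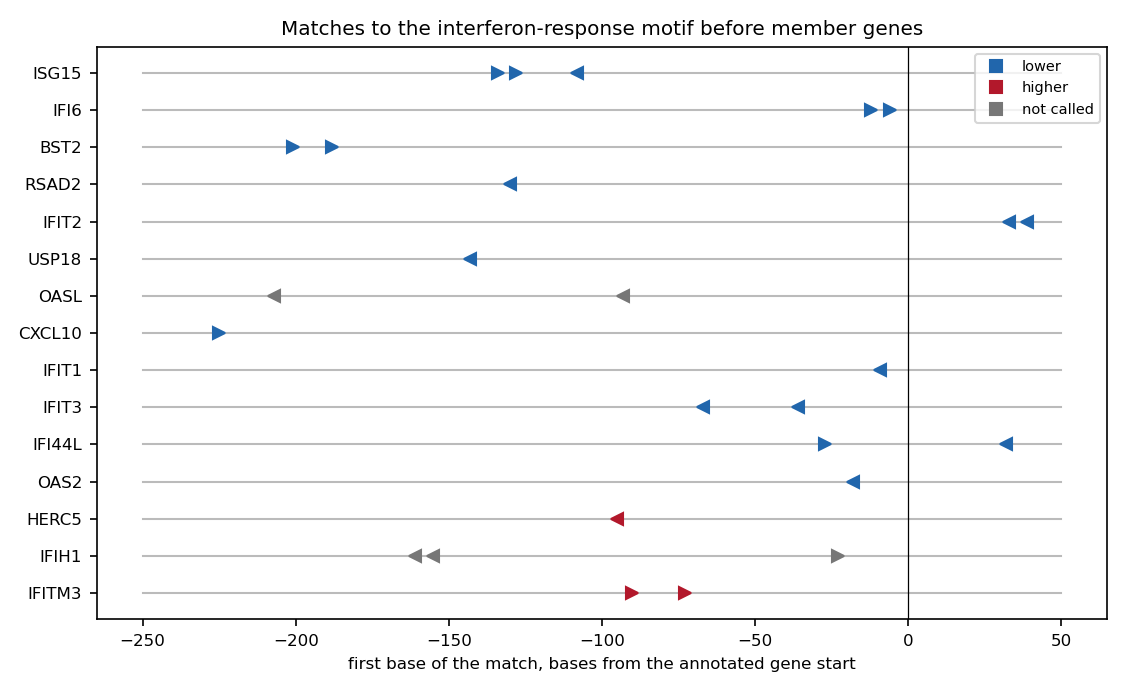
The plot of motif positions shows every match to GAAANNGAAA in the 15 windows that hold one, as bases from the annotated gene start, with the triangle pointing along the strand of the match and its colour giving the call of the gene. Matches lie from 225 bases before to 39 bases after the start, in genes that fell, rose or did not pass.

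The 3 cytosolic sensors of viral RNA, which signal through MAVS to switch on interferon, moved in different directions. DDX58 (chromosome 10, 33891720 to 33976151), the helicase RIG-I that senses RNA with free phosphate ends, was at 45.5 and 46.3 FPKM in the controls and at 50.5 and 52.3 FPKM in the knockdown. It rose by 12.0% (log2 0.16, SE 0.0303, adjusted p = 1.35e-06), a call that was lost after removal of the length and GC trends (log2 0.06, adjusted p = 0.106). IFIH1, the helicase MDA5 that senses long double-stranded RNA, was at 12.2 and 11.7 FPKM against 12.6 and 13.1 FPKM and did not pass (log2 0.11, adjusted p = 0.148). DHX58, the related protein LGP2 that modulates the other sensors, was at 17.1 and 16.5 FPKM against 13.5 and 13.0 FPKM. It fell to 0.813 times control (adjusted p = 1.34e-05), with no overlap between the groups.

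Of the 4 STAT and IRF genes 2 fell, IRF1 and IRF7, and the ISGF3 genes STAT2 and IRF9 did not pass by counts. STAT2, the subunit of ISGF3 that carries its activation domain, was at 32.3 and 31.2 FPKM in the controls and at 29.8 and 28.9 FPKM in the knockdown (log2 -0.07, SE 0.0353, adjusted p = 0.0729). IRF9, the DNA-binding subunit of ISGF3, was at 48.3 and 46.0 FPKM against 43.1 and 45.1 FPKM. By counts its fold was 0.995 (log2 -0.01, SE 0.052, adjusted p = 0.925), and its groups overlapped in CPM though not in FPKM. With the length trend removed IRF9 passed as higher (log2 0.14, adjusted p = 0.0217) and STAT2 as lower (log2 -0.17, adjusted p = 2.93e-05).

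IRF1, a factor induced by interferon gamma that also keeps basal antiviral genes on, was at 51.0 and 51.5 FPKM against 42.5 and 41.7 FPKM. By counts it fell to 0.855 times control (log2 -0.225, adjusted p = 2.55e-06). With the length trend removed its change was -0.14 (adjusted p = 0.0049). Removal of both the length and the GC trend left -0.097, which barely passed (adjusted p = 0.0477). IRF7, which drives the genes of interferon alpha, was at 14.6 and 14.4 FPKM against 12.8 and 12.8 FPKM and fell to 0.863 times control (adjusted p = 0.0161). The call of IRF7 was lost without control replicate 1 (adjusted p = 0.0897), without knockdown replicate 1 (0.0918), with DESeq2 (0.176) and under the offset for effective length (0.191).

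All 3 IFIT genes fell. IFIT proteins bind foreign RNA at its end and block its translation, and the genes lie side by side on chromosome 14. IFIT1 (101237403 to 101249486) was at 37.3 and 34.5 FPKM in the controls and 28.4 and 28.3 FPKM in the knockdown (log2 -0.28, SE 0.0504, adjusted p = 8.13e-07). IFIT3 (101214730 to 101225169), the partner that stabilises IFIT1, was at 75.4 and 75.8 FPKM against 59.6 and 60.7 FPKM (log2 -0.27, SE 0.0363, adjusted p = 6.41e-11). IFIT2 (101193421 to 101204292) was the least abundant of the IFIT genes per length, at 10.0 and 8.12 FPKM against 7.49 and 6.31 FPKM. Its counts fell most (log2 -0.52, SE 0.0783, adjusted p = 3.05e-09), while the offset for effective length brought the change to -0.34 and limma on log2(FPKM + 1) made no call (adjusted p = 0.0695). LOC100151816, which RefSeq lists under the synonym IFIT5, lies in the same cluster at 101254818 to 101266105 and was looked up after the values were seen. It was at 54.7 and 51.6 FPKM against 57.6 and 55.7 FPKM and did not pass (log2 -0.06, adjusted p = 0.152). Under the offset for effective length it was higher (log2 0.14, adjusted p = 0.00315).

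Among the enzymes activated by double-stranded RNA OAS1 and OAS2 fell and the kinase EIF2AK2 rose. The oligoadenylate synthetases make the messenger that activates RNase L. OAS2 was at 70.6 and 69.8 FPKM in the controls and at 61.6 and 62.6 FPKM in the knockdown, a fall to 0.912 times control (adjusted p = 4.40e-05). OAS1, its neighbour on chromosome 14, was at 7.99 and 7.03 FPKM against 5.88 and 4.82 FPKM (log2 -0.40, SE 0.129, adjusted p = 0.00613). OASL, a family member without the synthetase activity, was at 1.63 and 1.64 FPKM against 1.18 and 1.15 FPKM, from only 20 to 28 counts per library, and did not pass (adjusted p = 0.333), though limma called it lower (0.043). EIF2AK2, the kinase PKR that stops translation, has by far the longest transcript of the list. It was at 13.5 and 13.8 FPKM against 14.1 and 15.8 FPKM and rose by 10.9% (log2 0.15, SE 0.0367, adjusted p = 2.92e-04). Without knockdown replicate 2 its change was 0.08 (adjusted p = 0.145), limma did not call it (0.182), and with the length trend removed it was -0.03 (adjusted p = 0.571). The call of OAS1 was lost without control replicate 1 (adjusted p = 0.129) without knockdown replicate 2 (0.14) and with DESeq2 (0.12).

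The dynamin-like GTPases MX1 and MX2, which trap viral nucleocapsids, lie next to each other on chromosome 13. MX1 was abundant, at 167.5 and 176.0 FPKM in the controls and 159.1 and 157.5 FPKM in the knockdown. Its fall to 0.958 times control was among the smallest on the list (log2 -0.06, SE 0.0239, adjusted p = 0.0247). It was -0.10 without control replicate 1 and -0.03 without control replicate 2 (adjusted p = 0.535), and the call was also lost without knockdown replicate 2 (adjusted p = 0.133) and with DESeq2 (0.158). MX2 was at 14.98 and 13.7 FPKM against 11.4 and 11.6 FPKM and fell to 0.83 times control (log2 -0.27, SE 0.0504, adjusted p = 1.59e-06).

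ISG15 is a ubiquitin-like protein that is attached to other proteins and removed again, and its gene showed the deepest fall of the list. ISG15 (chromosome 6, 63363201 to 63364211) was at 278.8 and 284.0 FPKM in the controls and at 96.7 and 95.2 FPKM in the knockdown. These came from 1370 and 1286 counts against 615 and 540 counts, a log2 change of -1.26 (SE 0.0526, adjusted p = 6.69e-53). USP18, the protease that removes ISG15 and also dampens signalling at IFNAR2, was at 49.5 and 49.7 FPKM against 36.8 and 34.8 FPKM and fell to 0.745 times control (adjusted p = 2.94e-14).

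Neither ligase on the list fell by counts. HERC5, the main ligase, was at 28.6 and 29.4 FPKM against 30.3 and 30.1 FPKM and rose by 7.0% (adjusted p = 0.0126). Leaving out the first control (adjusted p = 0.194) or the first knockdown library (0.0729) ended that call, as did DESeq2 (0.103) and limma (0.246), and removing the length trend brought the log2 change to -0.001. TRIM25, which ubiquitinates RIG-I, was at 26.6 and 27.2 FPKM against 24.7 and 25.5 FPKM and did not pass (log2 -0.06, adjusted p = 0.137). With the length trend removed it passed as lower (log2 -0.16, adjusted p = 4.27e-05). Of the other enzymes of the pathway, which are not members, the activating enzyme UBA7 fell (log2 -0.43, adjusted p = 5.56e-05), a call that did not hold in every alternative fit. The conjugating enzyme UBE2L6 had a log2 change of -0.14 (adjusted p = 0.3). The direction of UBE2L6 depended on the fit: it was lower with limma (log2 -0.65, adjusted p = 2.50e-04) and under the offset for effective length (-0.61, adjusted p = 3.00e-05), and higher after removal of the length and GC trends (0.42, adjusted p = 6.45e-04). UBE2L6 was singled out after its values were seen.

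Of the 4 genes for small membrane proteins 3 fell. IFI6 (chromosome 6, 84852782 to 84858072), a protein of the endoplasmic reticulum and mitochondria, was the most abundant gene of the list per length. It was at 1141 and 1143 FPKM in the controls and at 473.3 and 466.8 FPKM in the knockdown, a fall to 0.478 times control by counts (log2 -1.06, SE 0.025, adjusted p = 4.71e-87). BST2, the protein tetherin that holds budding virions at the cell surface, was at 87.8 and 75.3 FPKM against 38.8 and 34.5 FPKM (log2 -0.77, SE 0.103, adjusted p = 3.77e-11). For both genes every knockdown library was below every control library.

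The IFITM proteins block fusion of virus with endosomes, and 2 of them lie 3162 bases apart on chromosome 2. IFITM1 was at 18.4 and 19.9 FPKM in the controls and 10.7 and 11.1 FPKM in the knockdown (log2 -0.57, SE 0.151, adjusted p = 6.84e-04). IFITM3 was at 402.2 and 417.2 FPKM in the controls and 330.8 and 328.8 FPKM in the knockdown, thus lower per length, while its counts rose (811 and 772 against 1058 and 935.2 counts, log2 0.28, adjusted p = 2.34e-06). Its direction depended on the unit and the fit: an offset for effective length gave a log2 change of -0.26 (adjusted p = 1.47e-04) and limma on log2(FPKM + 1) gave -0.31 (adjusted p = 0.00105), while removal of the length and GC trends gave 0.84 (adjusted p = 1.36e-31). Its transcript of 438 bases is the shortest of the list. Removing the length trend did not level genes of this length. The 80 tested genes from 400 to 500 bases had a median log2 change of -0.68 before and -0.81 after it, so the trend-removed values of IFITM3 are uncertain.

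Other IFITM-like loci close by on chromosome 2, looked up after the values were seen, were lower by counts. LOC100519082 fell by 0.55, LOC100626247 by 0.20 and LOC102161418 by 0.57 on the log2 scale, with adjusted p-values of 2.32e-26, 0.00266 and 0.00691. Removing the length trend turned LOC100626247 to 0.14, a call in the other direction (adjusted p = 0.0418). IFITM3, EIF2AK2 and XAF1 had counts that were not whole (beyond 0.005), so reads were shared with other transcripts and their levels are less certain.

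RSAD2 (chromosome 3, 128880853 to 128897809), the enzyme viperin that makes a chain-terminating nucleotide, fell most among genes with transcripts over 1000 bases. It was at 19.7 and 20.4 FPKM in the controls and at 11.9 and 12.2 FPKM in the knockdown (log2 -0.71, SE 0.0547, adjusted p = 1.51e-25). CMPK2, a nucleotide kinase whose gene starts 5585 bases beyond it and runs the opposite way, was at 9.44 and 9.55 FPKM against 8.23 and 8.36 FPKM and did not pass (log2 -0.15, SE 0.0731, adjusted p = 0.0895), though limma called it lower (0.0319). The difference between these neighbours was not tested. ISG20, an exonuclease that degrades viral RNA, was at 4.54 and 5.09 FPKM against 2.62 and 2.03 FPKM, from 42 counts in each control library and 28 and 19 counts in the knockdown. Its fall to 0.539 times control (SE 0.274 on the log2 scale, adjusted p = 0.00403) was lost without knockdown replicate 2 (adjusted p = 0.0711) and with DESeq2 (0.0914).

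CXCL10, a chemokine that draws activated T cells, was at 35.4 and 37.2 FPKM in the controls and at 27.5 and 23.7 FPKM in the knockdown and fell to 0.77 times control (adjusted p = 4.28e-06). IFI44, a protein with a GTPase-like fold, was at 43.2 and 45.4 FPKM against 32.9 and 33.1 FPKM (log2 -0.25, adjusted p = 3.00e-06). Its neighbour IFI44L was at 77.6 and 76.3 FPKM against 62.8 and 69.3 FPKM (log2 -0.15, adjusted p = 3.94e-04), and without knockdown replicate 1 its change was -0.09 (adjusted p = 0.113). XAF1, an antagonist of the apoptosis inhibitor XIAP, was at 20.2 and 21.1 FPKM against 14.1 and 14.4 FPKM (log2 -0.42, adjusted p = 1.07e-04). Knockdown libraries lay below the controls for all 4 of these genes. PARP14, a mono-ADP-ribosyltransferase, was at 7.37 and 7.21 FPKM against 7.75 and 7.27 FPKM and did not pass (log2 0.08, adjusted p = 0.28). Its FPKM overlapped between the groups.

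The change of these genes went with the length of their transcripts. Across the 32 genes Spearman's rho between log2 change and length was 0.57, and across all 15763 genes tested it was 0.37. Genes share libraries and are not independent replicates, so these are descriptions. Of the 6 genes under 1000 bases 5 fell and 1 rose, with a median log2 change of -0.83. Among all 1119 tested genes of this length 53.3% fell and 17.9% rose, with a median of -0.36. Of the 9 genes from 1000 to 2000 bases 7 fell and 0 rose (median -0.38), against 43.1% and 9.0% of all 3177 genes of that length (median -0.19).

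In the class from 2000 to 4000 bases 8 of 10 genes fell and 0 rose (median -0.25), against 21.5% and 18.1% of 5920 genes (median -0.01). In the class of at least 4000 bases 1 of 7 fell, MX2, and 3 rose (median 0.08), against 9.1% and 36.4% of 5547 genes (median 0.12). In all 4 classes the median of the listed genes was below that of all genes of the same length. Of the 7 long genes DDX58 and EIF2AK2 lay above the median of their class and the other 5 below it. In a finer split, chosen after the values were seen, the 155 tested genes under 400 bases had a median log2 change of 1.13, the 80 from 400 to 500 bases one of -0.68 and the 884 from 500 to 1000 bases one of -0.42. IFITM3, at 0.28, thus lay above the median of the genes nearest to it in length, whereas ISG15, IFI6, BST2, ISG20 and IFITM1 lay below that of theirs.

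**Figure D2:**
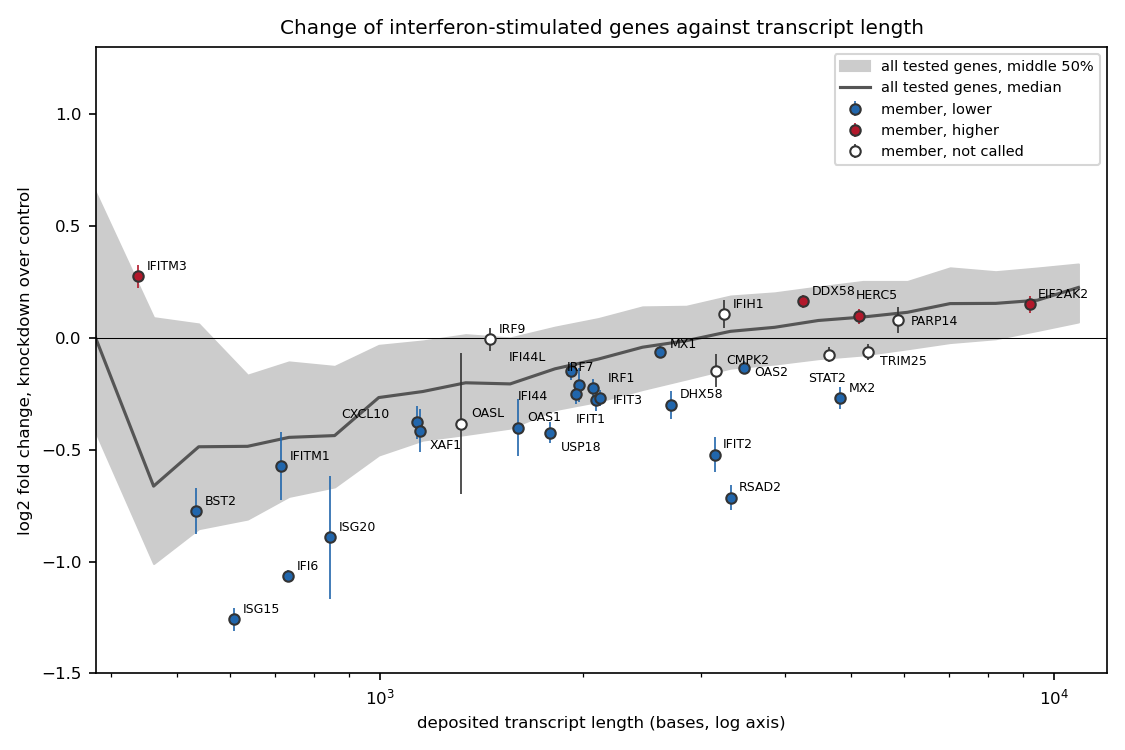
Log2 fold change of counts, knockdown over control (vertical axis), against deposited transcript length in bases (log axis). Points are the 32 genes with their standard errors, coloured by call, and the line and band give the median and the middle 50% of all tested genes in length classes. ISG15 at -1.26 is the lowest point, and RSAD2 at -0.71 is the lowest of the genes over 1000 bases.

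Fragment length or transcript length entered 3 further fits of the counts. With the effective length of each gene in each library as an offset, 21 of the 32 genes fell and 3 rose, against 23.9% and 22.5% of all genes tested. With a smooth trend of transcript length removed from each library 15 fell and 2 rose, against 21.7% and 19.2%. After removal of both the length and the GC trend 17 fell and 2 rose, against 19.9% and 20.2%. The median log2 change of the 32 genes was -0.27, -0.16 and -0.16 in these fits. Spearman's rho between log2 change and length was 0.75, 0.29 and 0.29 over the 32 genes. Over all genes tested it was 0.45, 0.04 and -0.01. The offset thus left a stronger relation to length than the fit of counts had (0.57 and 0.37).

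Removing the length trend ended the calls of IRF7, OAS1, MX1, IFITM1, ISG20, CXCL10, IFI44L and XAF1 among genes that fell, and of EIF2AK2, HERC5 and IFITM3 among genes that rose. STAT2 and TRIM25 then passed as lower and IRF9 as higher. The falls of ISG15 (log2 -1.03), IFI6 (-0.73), BST2 (-0.68) and RSAD2 (-0.73) passed in that fit too. After removal of both the length and the GC trend they also passed, but those of ISG15 (log2 -0.77), IFI6 (-0.64) and BST2 (-0.29, adjusted p = 0.0155) were smaller than by counts by over 1.5 times, and that of RSAD2 was -0.77. By length class the medians after removal were -0.61 under 1000 bases, -0.16 from 1000 to 2000, -0.17 from 2000 to 4000 and -0.03 at 4000 bases or more. All tested genes had medians of -0.11, -0.04, 0.01 and 0.00 in the same classes. In the finer split, with the length trend alone removed, all tested genes had medians of -0.04 under 400 bases, -0.81 from 400 to 500 and -0.11 from 500 to 1000. The trend thus did not follow genes from 400 to 500 bases, among them IFITM3 and the non-member UBE2L6 (462 bases).

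In each of 6 fits (edgeR on counts, DESeq2, limma on log2(FPKM + 1) and the 3 fits with length) 12 of the 32 genes fell, against 11.4% of all genes tested. For DESeq2 alone 17 of the 32 fell and 3 rose, against 16.6% and 15.7% of all genes it tested, and for limma 23 fell and 1 rose, against 29.7% and 15.6%. The 12 were the sensor DHX58, the factor IRF1, IFIT1, IFIT3, OAS2, MX2, ISG15, USP18, BST2, IFI6, RSAD2 and IFI44. None of the 32 rose in all 6, against 9.43% of all genes. These shares of all genes are over 15763 genes, and a gene that a fit did not test counts as not called. DESeq2 tested 14805 genes and limma 13072, whereas all 32 were tested in every fit, so the shares are low for a comparison.

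**Figure D3:**
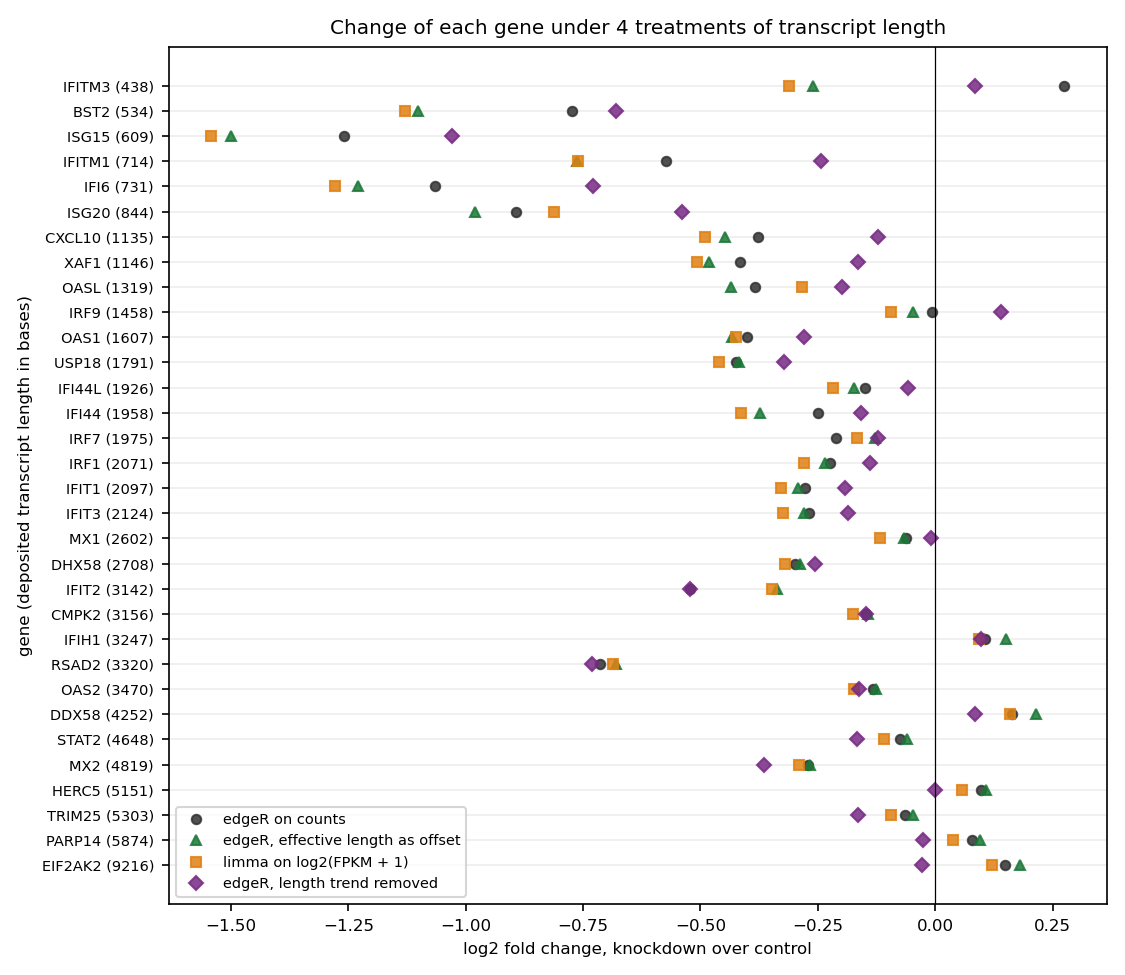
Log2 change, knockdown over control (horizontal axis), of each of the 32 genes in 4 fits, 1 symbol per fit, with the genes ordered by transcript length in bases. ISG15, IFI6, BST2 and RSAD2 lie below 0 in all 4, and IFITM3 lies at 0.28 in the fit of counts and at -0.26 with the effective length as an offset.

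The deposited scales shift as a whole between the groups. Over 12755 genes the median ratio of knockdown to control was 0.958 in FPKM (log2 -0.06) and 1.12 in TPM (log2 0.16). The shift in FPKM was not the same at every transcript length. With limma on log2(FPKM + 1) the median over all genes it tested was -0.57 under 1000 bases and -0.25 from 1000 to 2000. It was -0.05 from 2000 to 4000 and 0.08 at 4000 bases or more. The side by side FPKM values above are read against the shift of their length class.

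Of 9 tested receptors and kinases 4 rose and 0 fell (median log2 change 0.10), against 22.7% and 23.8% of all genes tested. With the length trend removed 4 rose and 1 fell (median 0.03), against 19.2% and 21.7%. IFNAR1, the first receptor chain for type I interferon, was at 72.5 and 73.7 FPKM in the controls and at 96.3 and 96.0 FPKM in the knockdown (log2 0.37, SE 0.0271, adjusted p = 3.51e-27). IFNAR2, the other chain, was at 22.04 and 21.3 FPKM against 21.5 and 20.5 FPKM (log2 -0.01, adjusted p = 0.945). JAK1, the kinase shared by both interferon types, was at 101.8 and 102.3 FPKM against 115.0 and 113.7 FPKM (log2 0.19, adjusted p = 4.00e-14). Its transcript has 4934 bases, in a length class where 36.4% of all genes rose. After removal of both the length and the GC trend its rise was 0.09 (adjusted p = 1.06e-04). IFNGR1, a chain of the interferon gamma receptor, rose by counts (log2 0.14, adjusted p = 0.00569), but not with DESeq2 (0.0837), limma (0.109), without control replicate 1 (0.117) or without knockdown replicate 2 (0.0906). The rise of JAK2 (log2 0.12, adjusted p = 0.0268) was lost with DESeq2 (0.194), limma (0.168), the length trend removed (0.696) and without control replicate 1 (log2 0.07, adjusted p = 0.401), knockdown replicate 1 (0.0977) or knockdown replicate 2 (0.091).

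Interferon transcripts were close to the limit of detection. Of the 7 interferons listed 4 had a row, and none had enough reads to be tested. IFNB1 had 1 and 2 counts in the controls and 0 and 2 in the knockdown, and IFNG had 0 and 1 against 0 and 0. All 28 annotated interferon genes together gave 20 and 20 counts against 21 and 11.

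Of 10 genes on the route from RNA or DNA sensing to interferon 4 fell and 2 rose (median -0.15). The shares of all genes tested were 23.8% and 22.7%. ZBP1, a sensor of Z-form nucleic acid and itself induced by interferon, was at 7.62 and 7.08 FPKM against 4.29 and 4.72 FPKM (log2 -0.71, adjusted p = 2.09e-14). TLR3, the endosomal receptor of double-stranded RNA, was at 7.76 and 7.22 FPKM against 10.5 and 11.8 FPKM (log2 0.33, adjusted p = 1.08e-06). With both the length and the GC trend removed the rise of TLR3 was 0.18 (adjusted p = 0.00983). Its adaptor TICAM1 also rose (log2 0.34, adjusted p = 1.28e-04), a call that did not hold in every alternative fit. MAVS, the adaptor of RIG-I and MDA5, fell by counts (log2 -0.18, adjusted p = 0.00413), but its change was -0.001 under the offset for effective length and it was not called with DESeq2 (0.0927), limma (0.484) or without control replicate 1 (0.0867).

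Of 7 further factors and brakes 1 fell and 3 rose (median 0.05), against 23.8% and 22.7% of all genes tested. IRF2, a factor that competes with IRF1, rose (log2 0.27, adjusted p = 8.42e-05), as did PIAS1, an inhibitor of STAT signalling (log2 0.36, adjusted p = 4.37e-08). With both the length and the GC trend removed the rise of PIAS1 was 0.17 (adjusted p = 0.0105). NLRC5, the activator of class I genes, also rose (log2 0.23, adjusted p = 0.0145), a call that was lost with DESeq2 (0.165), with limma (0.163), with the length trend removed (0.287), with both trends removed (0.0613) and without control replicate 1 (0.0674), control replicate 2 (0.0545) or knockdown replicate 2 (0.358). SOCS3, a feedback inhibitor of cytokine receptors, fell by counts (log2 -0.25, adjusted p = 2.62e-06) and was at 0.03 under the offset for effective length and at -0.02 with limma (adjusted p = 0.731).

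Antigen presentation, which interferon also induces, gave 6 falls and 2 rises among 9 genes (median -0.23), against 23.8% and 22.7% of all. SLA-2, a class I molecule of the pig, was at 626.3 and 622.4 FPKM in the controls and 408.2 and 416.1 FPKM in the knockdown (log2 -0.56, adjusted p = 1.19e-57). TAP2, a subunit of the peptide transporter, was at 30.8 and 29.6 FPKM against 19.5 and 20.8 FPKM (log2 -0.53, adjusted p = 1.44e-19). The immunoproteasome subunit PSMB8 fell as well (log2 -0.61, adjusted p = 1.62e-14), while the peptide-loading factor TAPBP rose (log2 0.33, adjusted p = 1.65e-13). After removal of both the length and the GC trend the falls of SLA-2 (log2 -0.28) and PSMB8 (-0.33) were smaller by over 1.5 times and still passed. SLA genes are near copies of one another, so reads could be split between them.

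Among 23 further interferon-induced genes 8 fell, 4 rose and 11 did not pass (median -0.08). IFI35 was at 20.2 and 21.2 FPKM against 9.91 and 10.1 FPKM (log2 -0.94, adjusted p = 6.71e-15). PML, the organiser of PML nuclear bodies, was at 22.3 and 21.1 FPKM against 30.4 and 29.8 FPKM (log2 0.44, adjusted p = 1.01e-19). TRIM26, a ubiquitin ligase, fell (log2 -0.51, adjusted p = 4.74e-07, and -0.29 after removal of both trends). The shares of all tested genes to read these counts against are again 23.8% lower and 22.7% higher.

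**Figure D4:**
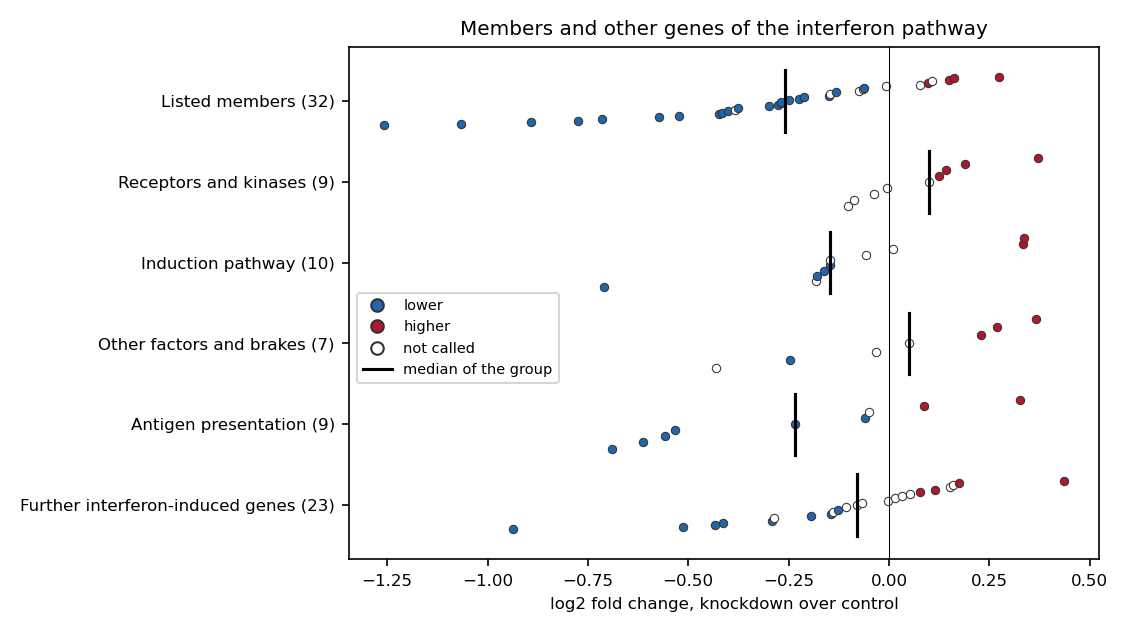
Each point is the log2 change of 1 gene in the fit of counts, knockdown over control, with the 32 genes above the other lists of the interferon pathway and a bar at each median. The medians are -0.26 for the 32 genes, 0.10 for receptors and kinases and -0.23 for antigen presentation.

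Markers of other cells moved between the groups beside these results. The 8 macrophage markers summed to 34.8 and 39.0 FPKM in the controls and to 24.3 and 27.1 FPKM in the knockdown. Of the 6 tested, AIF1, CD14 and CD163 fell and PTPRC rose, and C1QA and C1QB were too low to test, at 0.14 to 0.60 FPKM. The calls of CD163 (adjusted p = 0.249) and PTPRC (0.123) were lost with DESeq2. That of CD14 was lost after removal of both the length and the GC trend (0.418), and AIF1 had only 19 to 54 counts per library. The Sertoli markers summed to 680.5 and 667.2 against 823.4 and 850.8 FPKM, with 4 of 6 higher and 2 lower. Germ cell markers summed to 144.8 and 143.5 against 108.7 and 104.0 FPKM, with 2 of 6 lower and 2 higher. Peritubular markers summed to 5389 and 5304 against 5230 and 5127 FPKM, with 4 of 5 higher and 1 lower by counts. Leydig markers summed to 206.4 and 203.2 against 169.1 and 180.4 FPKM, with 1 of 4 tested lower. Markers of T cells summed to at most 2.05 FPKM, those of endothelial cells to between 9.43 and 11.7 FPKM, and no marker on these lists was at 0 in every library. The counts of markers called are read beside the 23.8% of all tested genes that fell and the 22.7% that rose. The part of these shifts in the changes of the interferon-stimulated genes was not tested.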

How the data were processed

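Messenger RNA of 2 control and 2 knockdown libraries was sequenced on an MGI platform, and the samples were grouped by their titles and genotype. Per the labels' protocols, SOAPnuke 2.1.0 cleaned the reads, HISAT2 2.2.1 placed them on Sscrofa 11.1, bowtie2 2.3.5 mapped them to transcripts and RSEM 1.3.3 counted them. The authors deposited expected counts, which RSEM estimates and which need not be whole. The authors also deposited FPKM and TPM per gene, with transcript and effective lengths in bases, from whose difference the mean fragment length was read. No source used here says whether strand was used in counting.

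Expected counts were rounded and tested with edgeR 4.0.16 in R 4.3.3 (TMM, filterByExpr with a minimum count of 10, quasi-likelihood test, Benjamini-Hochberg adjustment over 15763 genes, threshold 0.05). Alternatives were DESeq2 1.42.0, limma 3.58.1 on log2(FPKM + 1) or log2(FPKM + 0.1), other scalings, no filter, a replicate block, the effective length as an offset, trends of length and GC content removed with mgcv 1.9.3, and each library left out. The scripts were tested on simulated data. Motifs were searched in RefSeq promoter windows.

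All listed genes were named. Of each other pathway list up to 4 genes with the smallest p and a mean of at least 1 FPKM in the higher group were named, plus IFNAR1, IFNAR2, IFNB1 and IFNG. A gene of these lists is not reported here and was left out of the list's counts. The genes and lists were chosen with earlier results of these data known.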

Additional observations from a re-analysis of the deposited data

How the results depend on the processing

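The count of genes that fell stayed between 15 and 23 under all alternatives run, and the median stayed below 0. The share of all genes tested that fell ranged from 12.9% (limma without filter) to 29.7% (limma on log2(FPKM + 1)). The share that rose ranged from 6.09% (limma without filter) to 23.3% (replicate block). DESeq2 gave 17 lower and 3 higher. With limma 1 gene was higher in each of the 3 settings, and the median was -0.301, -0.321 (pseudocount 0.1) and -0.301 (no filter). With the length trend removed 2 were higher and the median was -0.164, and with length and GC trends removed 2 were higher and it was -0.162. Leaving out 1 library gave 18 to 20 lower, 3 to 4 higher and medians from -0.265 to -0.229, beside 19.5% to 19.9% of all genes lower and 17.8% to 18.7% higher. With the replicate block 20 fell, 4 rose and the median was -0.259 (all genes: 24.1% lower, 23.3% higher), and MX1 lost its call (adjusted p = 0.054). Over all genes tested the deviations from the group mean of the first control and the first knockdown library were not correlated (r = 0). With 2 libraries per group and little spread within a group, this cannot tell whether same-numbered libraries shared an experiment.

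Directions turned for these genes among others near 0. IRF9 was at 0.141 with the length trend removed and 0.233 with length and GC trends removed, EIF2AK2 at -0.029 and -0.081, HERC5 at -0.001 and 0, and PARP14 at -0.027 and -0.063. IFITM3 was at -0.312, -0.313 and -0.312 with limma and at -0.261 with the effective length offset. JAK2 was at -0.042 and UBE2L6 at 0.417 with length and GC trends removed, and SOCS3 at 0.027 with the effective length offset. The causes were not tested. Fragment length and group cannot be told apart in these libraries. Depth limits OASL and ISG20, with at most 42 counts in a library.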
